A study of Homo sapiens with 16 samples.

Results

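GRIK3 and 8 other ionotropic glutamate receptor genes (GRIK1, GRIK2, GRIK4, GRIK5, GRIA1, GRIA2, GRIA4 and GRID1) were examined for dimethylation of lysine 9 on histone H3 (H3K9me2) at their transcription start sites. The members were all windows that carried 1 of these 9 gene symbols, each 2000 bp wide and centred on an annotated start. This gave 89 distinct windows of 237274 in the whole table, and 37 of 16092 peak regions had their centre within 100 kb of a member start. GRIK3 had 4 windows, GRIK2 23, GRIA2 14, GRIA4 13, GRIA1 12, GRIK4 8, GRIK1 7, GRIK5 5 and GRID1 3. The genes share a family, and GRIK3 was selected on measured ChIP values, taken here to be its counts in 0.1% serum, which were lower in ΔLEO1 than in wild type. Which values chose it is not stated, so the values of single GRIK3 windows and peaks are given as a description with no test. They enter calls only in counts over all 89 windows or 37 peaks, which are no support for a result about GRIK3.

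The cells were BJ-5ta, human fibroblasts made immortal with telomerase (hTERT), either wild type or ΔLEO1, a single clone in which CRISPR/Cas9 cut the LEO1 gene. LEO1 is a subunit of the PAF1 complex, which travels with RNA polymerase II. Each genotype was grown in 10% serum, where cells divide, or held for 10 days in 0.1% serum, where they become quiescent. Each of the 4 conditions had 2 ChIP libraries and 2 input libraries, lettered A and B, and the input is the same sheared chromatin sequenced without antibody.

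The 7 ChIP libraries used here held 2153836 to 3696942 reads over all windows, and the 8 inputs 3267811 to 9238282. The median member window held 11 to 21 reads in a ChIP library and 14 to 37 in an input. The ChIP library A of ΔLEO1 in 10% serum held 54 reads over all windows and 0 at the members and was left out. ΔLEO1 in 10% serum thus had 1 ChIP library, and its values are given without a test. Input at the 3 LEO1 windows did not pass the test between genotypes (smallest adjusted p = 0.756, edgeR), and reads at a start are no measure of the cut itself. No source says whether libraries A and B came from separate cultures, so the p-values measure the spread between libraries, which may be technical.

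H3K9me2 is a mark of silent chromatin, laid down in large part by the methyltransferases G9a and GLP, and often covers tissue-specific genes outside the tissue that uses them. Ionotropic glutamate receptors are ion channels of 4 subunits that open when glutamate binds, and they are best known from synapses between neurons. GRIK1, GRIK2 and GRIK3 encode kainate receptor subunits that can form channels on their own, while the subunits from GRIK4 and GRIK5 need one of these as a partner. GRIA1, GRIA2 and GRIA4 encode AMPA receptor subunits, which carry most fast excitatory transmission, and the GRIA2 subunit restricts calcium entry. GRID1 encodes a delta subunit, related in sequence but not known as a conventional glutamate-gated channel.

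The sequences before 4 starts are shown because these starts hold many or few CpG dinucleotides and differed in ChIP over input, as described further on. Each runs 5′ to 3′ on the strand of the gene over the 250 bases before the start, as RefSeq gives it for GRCh38.p14, with CpG in capitals.
GRIK3, chr1:37034516-37034765, minus strand: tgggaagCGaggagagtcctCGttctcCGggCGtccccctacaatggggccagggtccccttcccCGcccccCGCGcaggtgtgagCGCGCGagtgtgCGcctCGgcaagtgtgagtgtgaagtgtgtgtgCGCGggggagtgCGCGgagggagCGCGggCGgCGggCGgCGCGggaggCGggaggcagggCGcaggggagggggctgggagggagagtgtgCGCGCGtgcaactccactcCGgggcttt
GRIK2 first start, chr6:101393458-101393707, plus strand: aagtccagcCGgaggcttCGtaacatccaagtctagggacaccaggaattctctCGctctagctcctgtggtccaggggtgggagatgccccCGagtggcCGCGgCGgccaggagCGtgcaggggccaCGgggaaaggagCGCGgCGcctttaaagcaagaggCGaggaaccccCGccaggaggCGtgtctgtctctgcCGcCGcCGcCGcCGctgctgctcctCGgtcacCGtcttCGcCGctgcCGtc
GRIK2 second start, chr6:101398735-101398984, plus strand: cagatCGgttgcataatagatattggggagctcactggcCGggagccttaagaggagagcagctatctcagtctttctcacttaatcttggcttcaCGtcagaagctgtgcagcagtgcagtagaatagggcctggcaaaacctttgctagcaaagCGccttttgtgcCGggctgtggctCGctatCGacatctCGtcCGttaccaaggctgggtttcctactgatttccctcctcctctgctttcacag
GRIK4, chr11:120511498-120511747, plus strand: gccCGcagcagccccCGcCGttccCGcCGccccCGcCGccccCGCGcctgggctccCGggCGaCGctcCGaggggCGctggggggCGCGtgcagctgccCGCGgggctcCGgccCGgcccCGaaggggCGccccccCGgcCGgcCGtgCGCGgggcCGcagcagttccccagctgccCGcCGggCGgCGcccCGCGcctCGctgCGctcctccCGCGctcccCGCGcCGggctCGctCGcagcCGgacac
The stretches of GRIK3 and GRIK2 first start held 29 and 25 CpG, that of GRIK4 44, and that of GRIK2 second start 9. The GRIK2 second start lies 5.28 kb downstream of the first.

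GRIK3 carried high ChIP signal in wild type at every annotated start. Its windows lie on the minus strand of chromosome 1 and are named by transcript, with coordinates of the build hg38 here and for all windows and peaks. ENST00000373091 (37033515 to 37035515) and ENST00000373093 (37033129 to 37035129) overlap at the upstream start, and ENST00000462621 (36858136 to 36860136) and ENST00000479620 (36852687 to 36854687) lie 175 and 181 kb further along the gene. Read counts are given as CPM, the count divided by the library total times its TMM factor and brought to a common library size. At ENST00000373091, wild type had 11.9 and 10.8 CPM in 10% serum and 8.16 and 8.82 CPM in 0.1% serum. ΔLEO1 had 5.45 CPM in its 1 library in 10% serum and 3.31 and 3.23 CPM in 0.1% serum. In each serum the ΔLEO1 libraries were below both wild-type libraries, as at 22.3% of all tested windows in 0.1% serum and 38.2% in 10% serum. Input at this window was 1.44 to 3.61 CPM over the 8 libraries.

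ENST00000373093, which shares most of its bases with that window, gave 12.7 and 10.5 CPM in wild type in 10% serum and 9.42 and 10.7 CPM in 0.1% serum. ΔLEO1 had 4.95 CPM in 10% serum and 4.13 and 4.84 CPM in 0.1% serum. In each serum the ΔLEO1 ChIP libraries were again below both wild-type libraries, while input ran from 1.44 to 3.28 CPM. At ENST00000462621 inside the gene, wild type had 11.5 and 9.08 CPM in 10% serum and 12.2 and 10.7 CPM in 0.1% serum. ΔLEO1 had 4.46 CPM in 10% serum and 3.86 and 2.02 CPM in 0.1% serum, with input at 1.80 to 3.50 CPM. In 0.1% serum 1 of the ΔLEO1 ChIP libraries lay within the range of the inputs and the other just above it. At ENST00000479620, wild type had 12.3 and 12.2 CPM in 10% serum and 8.16 and 11.5 CPM in 0.1% serum. ΔLEO1 had 5.95 CPM in 10% serum and 2.48 and 2.02 CPM in 0.1% serum, and input was 2.48 to 3.48 CPM. The ΔLEO1 libraries in 0.1% serum were level with the lowest input of this window or below it.

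**Figure D1:**
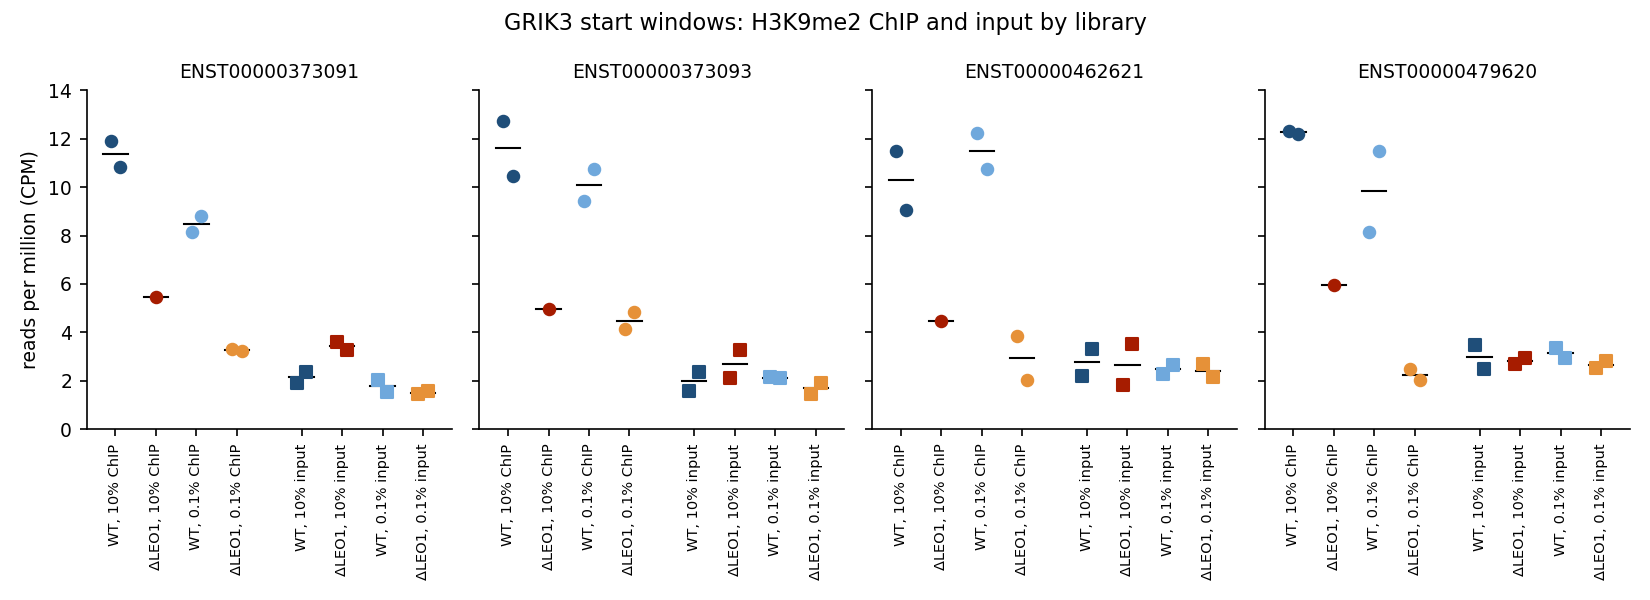
CPM at the 4 GRIK3 windows, 1 panel each, with a circle per ChIP library and a square per input library and a black line at the group mean. The wild-type ChIP libraries sit between 8.16 and 12.7 CPM, the ΔLEO1 ChIP libraries between 2.02 and 5.95 CPM, and the inputs between 1.44 and 3.61 CPM.

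The ratio of ChIP to input was computed with libraries scaled over TSS windows, so a log2 ratio of 0 is the level of a typical start and not the absence of the mark. In wild type in 10% serum, the log2 ratios of GRIK3 were 2.19 ± 0.30 (SE, 2 against 2 libraries) and 2.29 ± 0.30 at the upstream start, 1.70 ± 0.29 at ENST00000462621 and 1.95 ± 0.28 at ENST00000479620. Between 94.8% and 99.5% of all tested windows had lower ratios. When libraries were scaled by the reads over peak regions instead, where ChIP reads gather by construction, the 4 ratios ran from -0.55 to 0.05.

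In 0.1% serum the GRIK3 log2 ratios in wild type were 1.51 ± 0.29 at ENST00000479620, 2.06 ± 0.29 at ENST00000462621, 2.05 ± 0.31 at ENST00000373093 and 2.03 ± 0.33 at ENST00000373091. In ΔLEO1 they were -0.21 ± 0.40, 0.34 ± 0.38, 1.18 ± 0.37 and 0.93 ± 0.40, in the same order. Both inner windows were close to the median of all windows (0.01), and both upstream windows stayed above it. The 1 ΔLEO1 library in 10% serum gave 0.96, 0.51, 0.68 and 0.63. As a ratio of means, ChIP over input in 0.1% serum was 3.12 to 4.78 in wild type and 0.842 to 2.67 in ΔLEO1.

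The difference in ChIP between ΔLEO1 and wild type in 0.1% serum was -1.77 ± 0.34 and -1.67 ± 0.31 log2 at the inner GRIK3 windows and -1.05 ± 0.30 and -1.19 ± 0.33 at the upstream start. All 4 windows had both ΔLEO1 libraries below both wild-type libraries, as did 22.3% of all tested windows. In 10% serum the 1 ΔLEO1 library was below both wild-type libraries at all 4 windows, as it was at 38.2% of all windows, with differences of -1.08 to -0.94 log2. Relative to input, the differences in 0.1% serum were -1.72 to -0.87 log2. These values are relative to windows as a whole: with library sizes from the peak table, the median of all windows moved to 0.26 log2 and that of the GRIK3 windows from -1.43 to -1.17. The tables held no usable spike-in, so a change common to all windows cannot be seen. Scaling to fly chromatin added to each sample, the study reported a global rise of H3K9me2 in quiescent ΔLEO1 cells. The lower GRIK3 values here are thus relative to other windows and do not measure an absolute loss of the mark.

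Input at GRIK3 differed less between genotypes than ChIP did. The log2 difference between ΔLEO1 and wild-type inputs was -0.26 to -0.05 in 0.1% serum and -0.02 to 0.57 in 10% serum. Serum in wild type gave smaller differences at GRIK3 than genotype in 0.1% serum, with log2 values of -0.34 to 0.22 for ChIP in 0.1% against 10% serum, again without a test.

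The other kainate receptor genes had ChIP over input of very different height. GRIK1, on chromosome 21, had 7 overlapping windows at 1 start, and all 7 passed above input in wild type in 10% serum (edgeR quasi-likelihood test), where 29.5% of all windows did, with log2 ratios of 1.69 to 1.90. Its window with the most ChIP reads, ENST00000389124 (29938532 to 29940532), had 12.3 and 12.9 CPM in ChIP and 2.06 and 3.82 CPM in input there. In 0.1% serum this window had 9.73 and 10.4 CPM in wild type and 4.96 and 8.47 CPM in ΔLEO1. The ΔLEO1 libraries were the lower ones, but the difference of -0.58 ± 0.28 log2 did not pass (edgeR, adjusted p = 0.424). It was -0.18 without ΔLEO1 library A and -0.91 without library B.

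GRIK2, on chromosome 6, had 11 separate start regions and the widest range among the 9 genes, from -2.40 to 1.67 log2 in wild type in 10% serum. Of its 23 windows, 15 passed above input and 3 below. The 3 below input lie at the first RefSeq start, at 101392708 to 101395147, where the 7 ChIP libraries had 0 to 5 reads and the inputs 10 to 49. At the second start, 5.28 kb further on, ENST00000683806 (101397985 to 101399985) had 11.5 and 16.4 CPM in wild type in 10% serum against 4.43 and 4.33 CPM in input, a log2 ratio of 1.61 ± 0.25 (edgeR, adjusted p = 4.64e-09). These adjacent starts of 1 gene thus fell on opposite sides of the typical level. The contrast held in ΔLEO1 in 0.1% serum, where the first start gave -2.03 to -1.84 and the second 1.36 to 1.40 log2. ChIP at ENST00000683806 in 0.1% serum was 12.6 and 12.3 CPM in wild type and 12.9 and 8.87 CPM in ΔLEO1, and these groups overlapped.

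GRIK4, on chromosome 11, showed the same kind of spread. Its first start (120510746 to 120512802) had 0 to 3 ChIP reads per library against 3 to 34 in input, and all 3 windows there passed below input in wild type in 10% serum, at -1.65 to -1.42 log2. The innermost start held the window with the most ChIP reads, ENST00000530172 (120858048 to 120860048), with 10.3 and 5.94 CPM in ChIP and 1.74 and 3.20 CPM in input, or 1.48 ± 0.31 log2 (edgeR, adjusted p = 2.32e-05). Its wild-type ratio in 0.1% serum did not pass (adjusted p = 0.515). GRIK5, on chromosome 19, was near the typical level, with 1 of 5 windows above input and log2 ratios of -0.26 to 0.82. ENST00000454993 (42041901 to 42043901) of GRIK5 had 6.57 and 4.54 CPM in wild type in 10% serum and a log2 ratio of 0.57 ± 0.33 that did not pass (edgeR, adjusted p = 0.125) and was 0.28 without wild-type ChIP library A. The GRIK5 window at 42069206 is shared with ZNF574, so its reads cannot be given to either gene alone.

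Among the AMPA receptor genes, GRIA2 (chromosome 4) had 13 of 14 windows above input in wild type in 10% serum, with a median log2 ratio of 1.02. GRIA4 (chromosome 11) had 3 of 13, all away from its main cluster of 10 windows, which stayed at 0.12 to 0.35. GRIA1 (chromosome 5) had 2 of 12 and a median of -0.43, the lowest of the 9 genes. The windows with the most ChIP reads were inner starts in all 3 genes. ENST00000503980 of GRIA2 had 11.5 and 12.2 CPM in ChIP and 5.22 and 3.82 CPM in input in those cells, ENST00000527687 of GRIA4 had 11.9 and 12.6 against 2.37 and 2.79 CPM, and ENST00000520966 of GRIA1 had 11.9 and 10.5 against 5.06 and 3.92 CPM. Their log2 ratios were 1.36 ± 0.26, 2.07 ± 0.27 and 1.27 ± 0.26 (edgeR, largest adjusted p = 9.78e-06). GRID1 (chromosome 10) had its strongest window, ENST00000552278 (85612133 to 85614133), far inside the gene, with 18.5 and 13.3 CPM in ChIP, 4.11 and 2.99 CPM in input and 2.07 ± 0.25 log2 (edgeR, adjusted p = 3.18e-13). At the upstream GRID1 start the ratios were 0.70 and 1.09.

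In wild type in 10% serum, 45 of the 85 windows of the 8 genes other than GRIK3 passed above input and 6 below, where 29.5% and 29.1% of all windows did. Many member windows overlap, with all 89 in 35 separate start regions, so these counts are not separate observations. With GRIK3 counted, which may have been chosen on such values, 49 of 89 were above. With library sizes taken over peaks, 0 of 89 were above input (background 0.0122%) and 76 below (background 94.0%). For the 8 genes other than GRIK3, 39 of 85 windows passed above input in wild type in 0.1% serum (background 25.7%) and 52 in ΔLEO1 in 0.1% serum (background 27.0%). Below input were 6 (background 28.0%) and 9 (background 28.7%), the 9 being 3 each of GRIK2, GRIK4 and GRIA1. With library sizes taken over peaks these became 0 above in both (backgrounds 0.00547% and 0.00589%) and 79 and 53 below (backgrounds 94.8% and 87.1%). All 13 GRIA4 windows passed in ΔLEO1 and 3 in wild type, but the difference itself passed at none. Of these 13 windows, 10 overlap at 1 start and are not separate observations. Single libraries mattered, since leaving out ChIP library A of wild type or of ΔLEO1 in 0.1% serum lowered the counts above input to 24 and 31, and leaving out A of ΔLEO1 lowered the 9 below input to 3. DESeq2 gave 29 of 89 windows above input in wild type in 10% serum, and 15 and 29 of 85 in wild type and ΔLEO1 in 0.1% serum. The shares of all windows under DESeq2 are not given here, and the edgeR backgrounds do not apply to these counts.

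**Figure D2:**
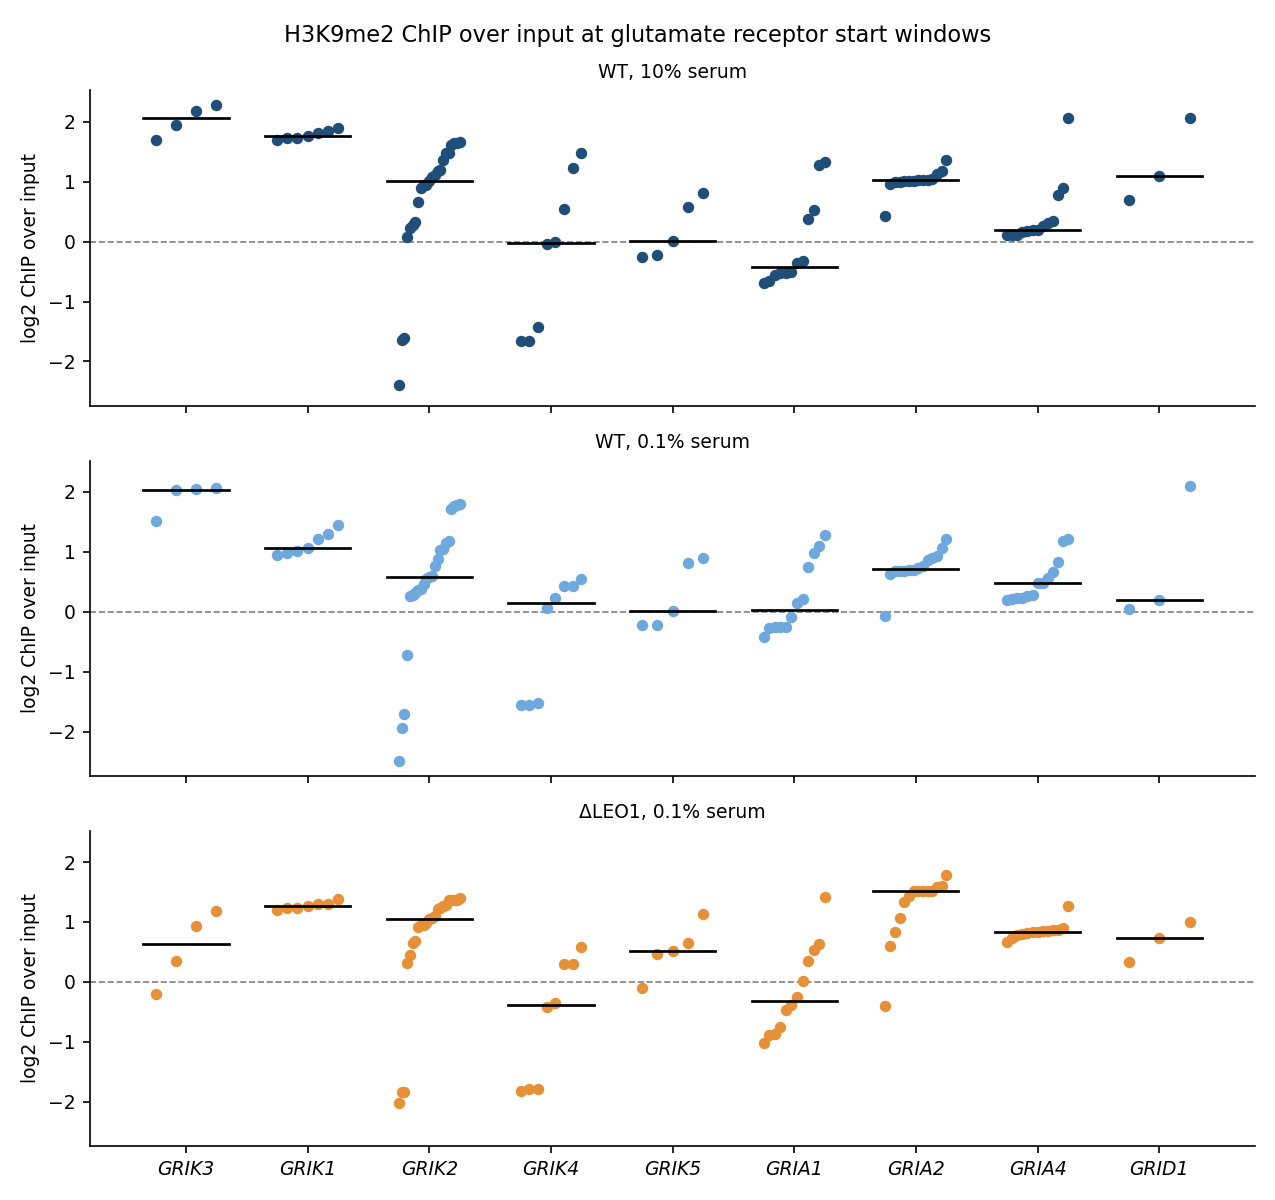
Log2 ratio of ChIP to input for each member window, by gene, in 3 conditions, with a point per window, a black line at the gene median and a dashed line at the level of TSS windows as a whole. GRIK3 points lie at 1.70 to 2.29 in wild type in 10% serum and at -0.21 to 1.18 in ΔLEO1 in 0.1% serum, and scaling by peak reads instead puts all but 1 of the GRIK3 ratios in wild type in 10% serum below 0.

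Between genotypes in 0.1% serum, the differences in ChIP alone at the other genes were smaller than those at GRIK3. This is a description because GRIK3 was chosen on measured values, and it did not hold relative to input. Of 78 windows of the other 8 genes with enough ChIP reads to be tested, 0 passed in 0.1% serum (edgeR), where 0.347% of all windows did. The smallest adjusted p was 0.197, at GRIA2, 8 of the 78 had an unadjusted p under 0.05, and DESeq2 also gave 0. Their differences ran from -0.94 (GRIK4) to 0.70 (GRIK5) log2, with a median of -0.07, against a GRIK3 median of -1.43. Gene medians were -0.38 for GRIK4, -0.27 for GRIK1, -0.21 for GRIA1, -0.12 for GRIA2, 0.11 for GRIK2, 0.20 for GRID1, 0.51 for GRIA4 and 0.53 for GRIK5. Both ΔLEO1 libraries were below both wild-type libraries at 17 of the 78 windows and above them at 9, where 22.3% and 18.5% of all windows were. The 17 of 78 was a share near that of all windows. Among the 17 were 6 of 7 GRIK1 windows, 5 of GRIA2 and 4 of 5 tested GRIK4 windows. The 7 GRIK1 windows overlap at 1 start, so these counts are not separate observations and single out no gene. Relative to input, 0 of 85 windows passed with edgeR or DESeq2 (background 0.0114%), with a smallest adjusted p of 0.455 at GRID1 and 8 at an unadjusted p under 0.05. Their differences relative to input ran from -1.09 (GRID1) to 1.11 (GRIK2) log2, which overlapped the GRIK3 range of -1.72 to -0.87.

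At ENST00000503980 of GRIA2, ChIP in 0.1% serum was 9.73 and 10.7 CPM in wild type and 6.06 and 4.43 CPM in ΔLEO1, a difference of -0.82 ± 0.29 log2 with adjusted p = 0.197 (edgeR). The groups did not overlap. Input at this window was 4.18 and 4.19 CPM in wild type and 3.41 and 2.49 CPM in ΔLEO1, so relative to input the difference was -0.38 log2, and -0.64 to -0.20 when 1 library was left out. At ENST00000552278 of GRID1, wild type had 9.73 and 16.9 CPM and ΔLEO1 9.36 and 6.85 CPM in 0.1% serum. Here the ΔLEO1 libraries were lower but near 1 of the wild-type libraries, and the difference of -0.58 log2 was -0.19 without wild-type library B and -0.95 without A. Relative to input the difference at this GRID1 window was -1.09 log2, and -1.5 to -0.7 when 1 library was left out. ENST00000527687 of GRIA4 had 8.79 and 8.44 CPM in wild type and 9.64 and 9.67 CPM in ΔLEO1, and ENST00000520966 of GRIA1 had 8.48 and 12.3 CPM and 10.5 and 10.5 CPM.

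**Figure D3:**
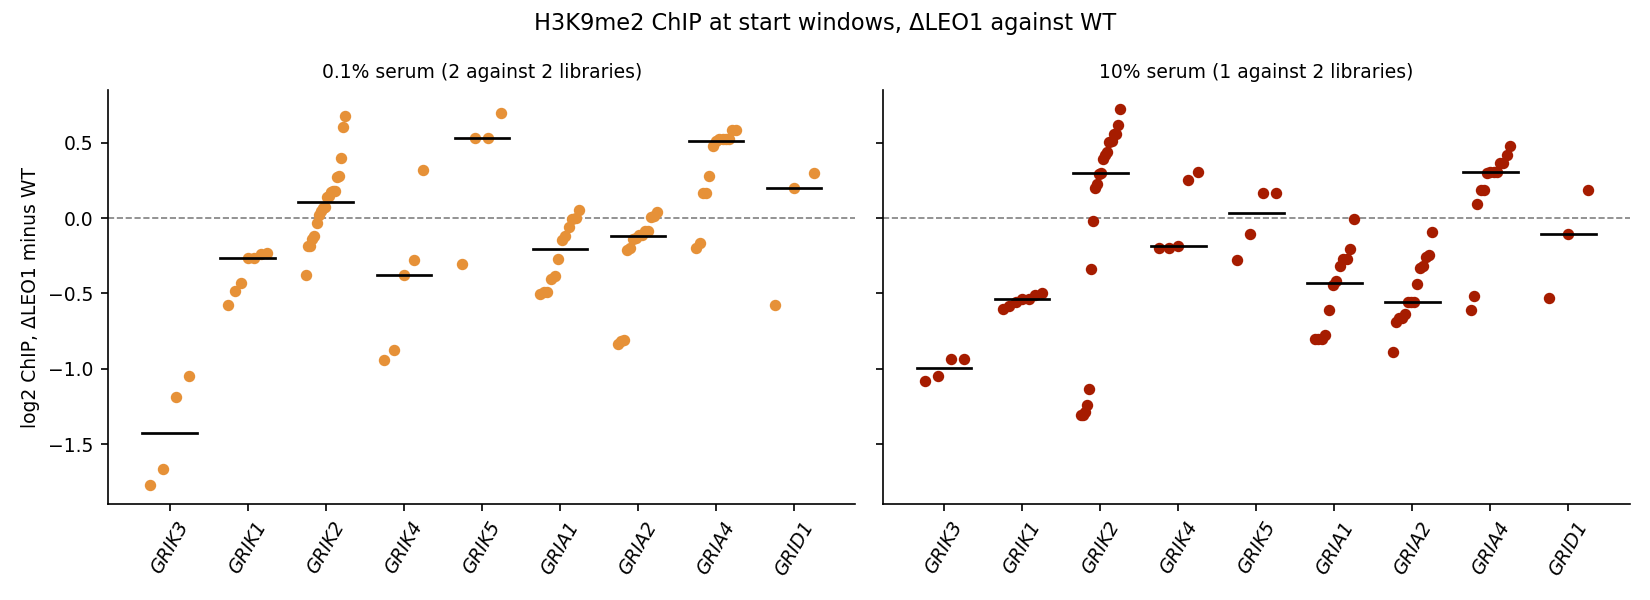
Log2 difference in ChIP between ΔLEO1 and wild type for each tested member window, by gene, in 0.1% serum (left) and 10% serum (right, 1 ΔLEO1 library), with a black line at the gene median. The GRIK3 windows lie between -1.77 and -1.05 on the left and between -1.08 and -0.94 on the right, and the other genes between -0.94 and 0.70 and between -1.31 and 0.72.

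In 10% serum, with 1 ΔLEO1 library, the 78 windows of the other genes had differences of -1.31 to 0.72 log2 and a median of -0.25, with GRIK3 inside their range there. ENST00000683806 of GRIK2 fell in that range at -1.24, with 5.45 CPM in ΔLEO1 against 11.5 and 16.4 CPM in wild type. Between sera in wild type, of the 78 tested windows of the other genes 0 passed in 0.1% against 10% serum (edgeR, background 0.27%, smallest adjusted p = 0.182, at GRID1), with 4 at an unadjusted p under 0.05. Relative to input 0 of 85 passed (background 0.0%, smallest adjusted p = 0.271), with 6 at an unadjusted p under 0.05, and DESeq2 gave 0 in both. GRID1 had the largest median, at -0.65 log2, followed by GRIK1 at -0.39, where all 7 windows were lower in 0.1% serum.

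Input reads at GRIA2 differed between genotypes without passing the test. All 14 GRIA2 windows were lower in ΔLEO1 input in both sera, with medians of -0.95 log2 in 0.1% serum (edgeR, smallest adjusted p = 0.631) and -0.31 in 10% serum. At ENST00000509417, the window with that smallest p and chosen after its values were seen, input in 0.1% serum was 3.64 and 5.72 CPM in wild type and 2.51 and 2.03 CPM in ΔLEO1. The 14 windows share many reads, and 10 of them form 1 cluster. No other member gene had an input median beyond -0.55 (GRIK1) in 0.1% serum, and 0 of 89 member windows passed in either serum with edgeR or DESeq2 (backgrounds 0.0% in 0.1% and 0.0021% in 10% serum). At an unadjusted p under 0.05 there were 15 in 0.1% and 9 in 10% serum. The share of all windows at that level is not given here and member windows overlap, so no excess is read from these counts. The over-input difference of GRIA2 between genotypes had a median of 0.72 log2 while that of ChIP alone was -0.12.

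CpG content of the promoter was set beside ChIP over input because CpG-rich starts are mostly kept free of silent marks. RefSeq promoters, 250 bases before and 50 after the start, were matched to 17707 tested windows by symbol and start, and 10 of the 14 member promoters, from 6 of the 7 member genes with an entry, matched. CpG was counted as CG, which reads the same on both strands. In wild type in 10% serum, the median log2 ratio was 0.62 over the 5201 promoters with 0 to 9 CpG and -1.09 over the 5361 with 30 or more. GRIK3 had 37 CpG, a number reached by 11.3% of all promoters, and a ratio of 2.19, above 98.8% of the promoters with 30 or more. GRIK2 first start and GRIK4, with 33 and 49 CpG, had ratios of -1.65 each, between the lower quartile (-1.78) and the median of that class. GRIK2 second start had 15 CpG and 1.61. The GRIK4 second start, with 29 CpG, was at -0.01. GRIK3 was the single member promoter in the CpG-rich class above the typical level in this scaling. The promoters of GRIK1 and GRID1 were not analysed here.

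**Figure D4:**
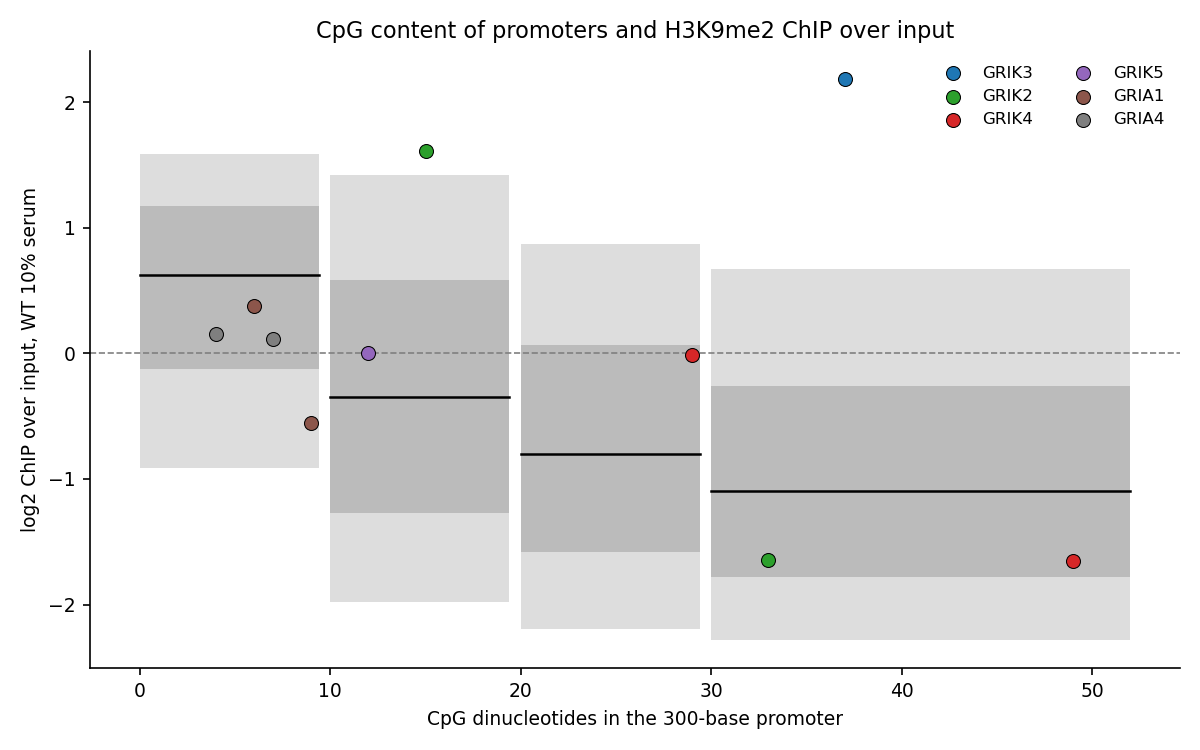
Log2 ratio of ChIP to input in wild type in 10% serum against the number of CpG in the promoter (250 bases before and 50 after the start), with member promoters as points. Grey bands give the range from the 10th to the 90th percentile (light) and between the quartiles (dark) of all matched promoters in 4 classes of CpG number, black lines their medians, and GRIK3 is the point at 37 CpG and 2.19, above the band of its class.

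Peak regions, as deposited, lay near 8 of the 9 genes. GRIK2 had 12, GRIK3 8, GRID1 5, GRIA2 4, GRIA4 3, GRIA1 and GRIK5 2 each and GRIK1 1. GRIK4 had 0. Of the 37 peaks, 22 lay on annotated repeats. The farthest peak included was 99.5 kb from a GRIK2 start and the nearest one left out 105 kb from a GRID1 start. With libraries scaled over TSS windows, all 37 peaks were above input in wild type in 10% serum, at 1.02 to 3.02 log2 with a median of 2.02, as were 98.2% of all peaks. ChIP reads gather in peaks by construction, so this is a description and no result about the members. Scaled over the peaks themselves, the ratios centred on 0 and 0 of 37 passed in either direction (edgeR, background 0.0932%), with 1 at an unadjusted p under 0.05 and 0 above input with DESeq2.

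The 8 GRIK3 peaks lay in the gene or upstream of it, 5 labelled as intron and 3 as a repeat. Each peak carries 1 label, so a peak on a repeat may also lie in an intron. Ratios of the 8 peaks on the TSS scale were 1.78 to 3.02 log2 in wild type in 10% serum. When genotypes were compared in 0.1% serum, 7 of the 8 were lower in ΔLEO1 on that scale, with a median of -0.71 log2 where the median of all peaks was -0.27. On the peak scale 5 of 8 were lower, with a median of -0.44 and a range of -0.80 to 0.84. The peak at 36849164 to 36849975 in intron 9, 4.12 kb from the innermost start, had 51.2 and 40.5 CPM (scaled over peak reads) in wild type and 26.5 and 27.8 CPM in ΔLEO1. It was the single GRIK3 peak whose ΔLEO1 libraries were both below wild type, as 19.7% of all peaks were. The peak at 36965929 to 36966496 in intron 1 went the other way, with 27.0 and 37.1 CPM in wild type and 55.9 and 69.4 CPM in ΔLEO1, both above wild type as at 17.9% of all peaks. Each was 1 peak of 8, with few reads and no test, so whether the difference varied along the gene cannot be read from them. In the 1 ΔLEO1 library in 10% serum, 6 of the 8 peaks were below both wild-type libraries, where 35.8% of all peaks were.

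Near the other 8 genes, 0 of 29 peaks passed between genotypes in 0.1% serum (edgeR, background 0.0621%, smallest adjusted p = 0.486) or between sera in wild type (background 0.0%, smallest adjusted p = 0.561), with 5 and 1 at an unadjusted p under 0.05 and 0 with DESeq2. Their median genotype difference was -0.11 log2 on the peak scale and -0.38 on the TSS scale. The 4 GRIA2 peaks had values below 0 on both, with medians of -0.60 and -0.87. The 3 GRIA4 peaks had values above 0 on the peak scale, with a median of 0.39, but 1 of 3 was below 0 on the TSS scale, where the median was 0.13.

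Around GRIK3, 78 windows of other genes or transcripts lay within 500 kb of a GRIK3 start. In wild type in 10% serum 12 of them passed above input and 28 below, where 29.5% and 29.1% of all windows did. Upstream of GRIK3, the pseudogene RNA5SP43 was at 1.82 log2 and the microRNA gene MIR4255 at 1.76. Farther upstream, MEAF6 (a subunit of histone acetyltransferase complexes) and ZC3H12A (an RNase that degrades inflammatory transcripts) had medians of -0.86 and -1.02. On the other side, downstream of GRIK3, OSCP1 and STK40 had medians of -0.48 and -1.78. Between genotypes in 0.1% serum, 1 of 50 tested windows passed, and it was lower in ΔLEO1, where 0.266% of all windows were lower and passed. It belongs to ENST00000642067, a transcript with no symbol that starts 99.0 kb upstream of GRIK3. Its ChIP was 13.5 and 13.4 CPM in wild type and 3.31 and 2.42 CPM in ΔLEO1, and its input 3.37 to 4.29 CPM in those cells. The difference was -1.94 log2 (edgeR, adjusted p = 9.39e-06), and relative to input -2.28 log2 (adjusted p = 0.0335), where 0.0101% of all windows were lower and passed. The other 49 ran from -1.05 to 0.60, and the median of the 50 was -0.06. The lowest of those that did not pass, ENST00000451375 and ENST00000657513, have no symbol and were at -1.05 and -0.97. Both had the 2 ΔLEO1 libraries below both wild-type libraries, as 22.3% of all windows did. MEAF6 and ZC3H12A had medians of 0.44 and 0.38.

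**Figure D5:**
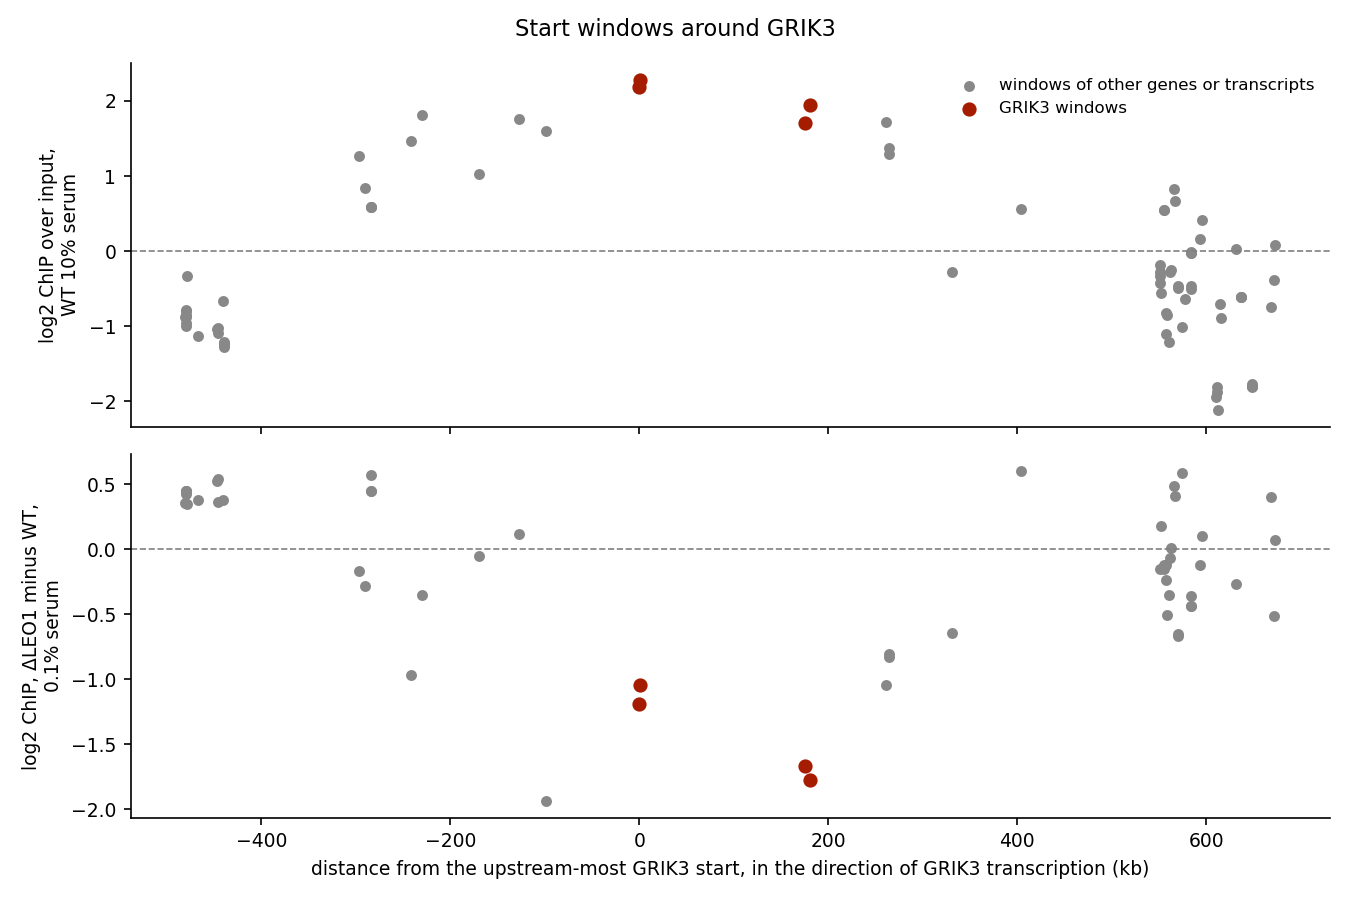
Log2 ratio of ChIP to input in wild type in 10% serum (top) and log2 difference in ChIP between ΔLEO1 and wild type in 0.1% serum (bottom) against the distance in kb from the upstream-most GRIK3 start, positive in the direction of transcription, with GRIK3 windows in red and other windows in grey. In the top panel, on the TSS scale, GRIK3 lies at 1.70 to 2.29 and the grey points reach 1.82, and in the bottom panel GRIK3 lies at -1.77 to -1.05 and the grey point at -99.0 kb at -1.94.

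The genes whose ChIP followed GRIK3 most closely over the 7 libraries were looked for with Pearson's r of log2 CPM against ENST00000373093, among windows on other chromosomes or more than 1 Mb away. They were R3HDM2P2 on chromosome 6, ADGRD1 on chromosome 12 and TAFA1 on chromosome 3, with r of 0.990, 0.990 and 0.988. Of 100111 windows compared, 962 had an r of 0.9 or more. All of them share the same 7 libraries.

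The other genes of glutamate signalling gave the level of the mark outside the 9 members. Metabotropic receptors, which act through G proteins, had 56 of 68 windows above input in wild type in 10% serum and a median of 1.46 log2, where the median of all windows was -0.04 and 29.5% passed above input and 29.1% below. GRM3 had a median of 1.98 and GRM6 1.82, while GRM4, with 14 windows, had -0.32 and a range of -2.37 to 2.36. Auxiliary subunits, which set the traffic and gating of AMPA and kainate receptors, had 34 of 60 windows above input and a median of 0.75. NETO1, a partner of kainate receptors, had a median of 1.96 and NETO2 0.12. NMDA receptor subunits had 21 of 51 above and 9 below, with GRIN2B at 1.72 and GRIN2D at -1.03. Glutamate transporters had 32 of 107 above, a share near that of all windows, and 4 below. Between genotypes in 0.1% serum 0 windows of these 4 lists passed, and their median ChIP differences were -0.30 to -0.09 log2. Between sera in wild type, 3 windows of SLC1A2, the main astrocyte glutamate transporter, were higher in 0.1% serum for ChIP, at 1.32, 1.32 and 1.66 log2 (edgeR, largest adjusted p = 0.0398), where 0.27% of all windows passed. The first 2 nearly coincide and have the same ChIP counts, and the third, ENST00000647193, had 6.57 and 0.698 CPM in 10% serum. Relative to input none of the 3 passed (smallest adjusted p = 0.275). No other window of these lists passed.

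Most starts of genes used by fibroblasts were low in the mark. Of 119 windows of 12 fibroblast markers, 92 passed below input in wild type in 10% serum and 3 above. Gene medians ran from -2.84 for VIM and -2.33 for COL1A1 to -0.54 for COL3A1, and the 3 above were of COL3A1, DCN and PDGFRA. Of 91 windows of housekeeping genes 74 were below and 3, all of EEF1A1, above, with medians from -3.37 for GAPDH to -0.18 for PGK1. Neuronal markers had 32 of 62 windows above and 10 below, with SNAP25 at 2.34 and TUBB3 at -1.64, and glial markers 27 of 70 above and 3 below. Over all windows 29.5% passed above and 29.1% below. ChIP of a silent mark does not measure expression, and no marker window passed between genotypes in 0.1% serum. Between sera in wild type, 1 window of COL3A1, a fibrillar collagen gene, was lower in 0.1% serum for ChIP (-1.60 log2, edgeR, adjusted p = 0.0439) and did not pass relative to input (adjusted p = 0.206).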

How the data were processed

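H3K9me2 ChIP and input libraries of BJ-5ta cells were analysed from 2 deposited tables of raw read counts, made by the authors, 1 over windows of 2000 bp around annotated starts and 1 over peak regions. The submitters' processing notes name STAR 2.7.10a, bcl2fastq 2.20.0.422, HOMER and the builds hg38 and dm6, and the peak caller is not given in the sources used here. The labels name the antibody only as H3, and H3K9me2 is the study's name for it.

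Windows with identical coordinates were printed once, while backgrounds count every tested transcript. Overlapping windows share reads and are not independent. Counts at an unadjusted p under 0.05 are given without the share of all windows or peaks at that level. Counts were filtered with filterByExpr (minimum count 10), scaled by TMM and tested with edgeR 4.0.16 quasi-likelihood fits in R 4.3.3 (prior count 2, Benjamini-Hochberg over all features, two-sided, adjusted p under 0.05). ChIP and input were fitted together over 15 libraries, ChIP alone over 7 and input alone over 8. The fits were tested on simulated data. SE was taken from the log2 fold change and its F value.

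The members and gene lists were chosen with earlier results of these data known. All 9 genes were named, with every window of GRIK3 and, for each other gene, the window with the largest mean ChIP CPM. Likeness to GRIK3 used windows with a mean of at least 10 counts. Alternatives were DESeq2 1.42.0, other library sizes, filters, the replicate block and leaving out each library. Some items of the gene lists are not reported here.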

Additional observations from a re-analysis of the deposited data

How the results depend on the processing

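The scaling of the libraries decided the counts of windows above and below input. With library sizes from the peak table, windows above input went from 49 of 89 in wild type in 10% serum, and from 39 and 52 of the 85 of the genes other than GRIK3 in wild type and ΔLEO1 in 0.1% serum, to 0 in each. These denominators hold for all such counts below, and the 89 include GRIK3, which may have been chosen on such values. Those below went from 6, 6 and 9 to 76, 79 and 53, while the median of all windows moved to -2.18, -1.92 and -1.63 log2. Peaks above input went from 0 to 37 with library sizes from the TSS table. Under the peak totals the log2 ratio in wild type in 10% serum changed sign at 3 GRIK3 windows (-0.33 at ENST00000479620, -0.55 at ENST00000462621 and -0.055 at ENST00000373091) and at the named window of each other gene: GRIK1 -0.38, GRIK2 -0.71, GRIK4 -0.75, GRIK5 -1.63, GRIA1 -1.03, GRIA2 -0.95, GRIA4 -0.20 and GRID1 -0.24.

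DESeq2 gave 29, 15 and 29 windows above input and 3 below in wild type in 0.1% serum. With the library of 54 reads kept in, those below were 3, 3 and 5. The cause of these changes was not tested. For DESeq2, the library kept in, the runs without 1 library and the replicate block, shares of all windows are not given. Those counts show only how far the calls moved. Leaving out 1 library gave 38 to 50, 24 to 43 and 31 to 55 windows above input and 3 to 6, 3 to 6 and 3 to 10 below. The 3 below came without WT 10% ChIP B or input A, without WT 10% input A or WT 0.1% input B, and without ΔLEO1 0.1% ChIP A. The GRIK3 median difference between genotypes was -1.52 to -1.30 for ChIP and -1.49 to -1.26 over input in 0.1% serum, and -1.09 to -0.90 in 10% serum. Without ΔLEO1 0.1% ChIP A, ENST00000462621 moved to -2.11 for ChIP and -2.25 over input. Counts between genotypes or sera stayed at 0 to 0 in every alternative run.

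Libraries of the same letter did not pair, with correlations of -0.24 to 0.11. The fit with the replicate block gave 49, 40 and 53 windows above input, 6, 6 and 9 below, and GRIK3 medians of -1.43, -1.40 and -0.96, and changed no call count by over 1.5 times. Depth limits what single windows can show, since windows with few ChIP reads (7 of 85) could not be tested for ChIP alone, and a ratio at 0 to 5 reads has a wide error.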
